A study of Danio rerio with 11 samples.

Results

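Described here is how much of each transcript came down with a tagged cap-binding protein relative to the RNA of the lysate, and how that RIP to input ratio differed between zebrafish eIF4E1b and its paralog eIF4E1c. In RNA immunoprecipitation (RIP) beads take a tagged protein out of a lysate, and its bound RNA is sequenced, while the input is RNA from a part of the lysate set aside before the pull-down. All 11 libraries of the series entered, and 16307 of 32520 gene identifiers had enough reads to be tested. The measure for each gene is log2(RIP/input) with eIF4E1b minus log2(RIP/input) with eIF4E1c, called the ratio difference below, so that a positive value means a higher ratio for eIF4E1b.

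The eIF4E1b libraries came from 8-cell embryos with the transgene tg(actb2:3xflag-sfGFP-eIF4E1b), 3 of them from RIP and 3 from input. The eIF4E1c libraries came from 8-cell embryos with tg(actb2:3xflag-sfGFP-eIF4E1c), 2 of them from RIP and 3 from input. In both lines the actb2 promoter, which is active throughout the fish, drives the bait with a FLAG and GFP tag, the labels name no mutant allele, and anti-GFP beads were used for the pull-down. RIP and input libraries were made with different kits, so the ratio of one protein holds the effect of the kit as well as that of the pull-down, and an effect of the kit common to both proteins cancels in the difference. Where a pull-down is set against its input or against the median gene below, that comparison holds the effect of the kit. A RIP from embryos without a tagged bait was not analysed here.

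Proteins of the eIF4E family hold the cap at the start of an mRNA. Canonical members pass the mRNA to eIF4G and so to the ribosome, and binding proteins such as eIF4EBPs and eIF4ENIF1 can block that step. The early zebrafish embryo lives on mRNAs that the mother placed in the egg, many of them kept untranslated until later. The study describes eIF4E1b as specific to the germline. It reports high expression of both eIF4E1b and eIF4E1c in oogenesis and the early embryo. Which mRNAs sit on eIF4E1b rather than on eIF4E1c, which is also a member of the cap-binding class, is the question that the comparison addresses.

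Total counts lay between 6943631 and 13993294 per library. The first eIF4E1c RIP library held the fewest genes, 15114 with a count, where the second held 17520 and no other library held under 18480. Across genes, the SD of the log2 difference between the 2 eIF4E1c RIP libraries was 1.65, against 0.834 to 0.955 between pairs of eIF4E1b RIP libraries and 0.595 to 0.774 between pairs of input libraries, so the eIF4E1c RIP arm is the least certain one. The labels call the replicates biological and say nothing further of their origin, so p-values measure the spread between these libraries. A single spread per gene was fitted over RIP and input libraries together, so a p-value does not measure the spread of the eIF4E1c RIP pair alone. All 10 maternal marker genes were above the limit of 3 counts in at least 1 library. The matched markers of blood and liver were at or under that limit in every library. Of 11 matched zygotic markers, 7 were above it in at least 1 library, led by gsc with up to 65 counts. Together the 11 had at most 8.14 CPM, here scaled by total counts without TMM factors. The muscle marker ckma reached 26 counts. Of the somatic ovary markers, gsdf had 4 to 41 counts, above the limit in every library, and amh stayed at or under it. Other CPM are read counts scaled to the library size with TMM factors. Differences are from edgeR's quasi-likelihood test with Benjamini-Hochberg adjustment at 0.05 over all 16307 genes.

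The ratio differed between the proteins for 1706 genes (10.5% of those tested). It was higher for eIF4E1b for 758 genes (4.65%) and higher for eIF4E1c for 948 genes (5.81%), with median ratio differences of 1.86 and -1.85. The median of all genes was 0.13. The RIP difference was larger in size than the input difference for 743 of the 758 and for 937 of the 948 genes, a count drawn from the values that chose them, against 12573 of all 16307 tested genes. In the same fit the RIP libraries alone gave 2335 (14.3%) and 2216 (13.6%) genes, and the inputs 23 (0.141%) and 24 (0.147%), where the first number of a pair counts genes higher with eIF4E1b and the second those higher with eIF4E1c. With libraries scaled by total counts the ratio calls were split 352 and 1093, in the same order. With limma-voom and a separate weight for each group the ratio calls were split 97 and 310, and the input calls 213 and 379. With a block for RIP and input libraries of a line that share a replicate number, taken as a pair from 1 lysate, 1162 genes passed, 492 higher for eIF4E1b and 670 for eIF4E1c. The labels do not state this pairing, and the block leaves 3 residual degrees of freedom. The RIP and input comparisons share libraries with the ratio and are given side by side only.

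The called genes were not evenly placed with both proteins. Relative to the median gene, the 758 genes had a median log2 ratio of 1.20 with eIF4E1b and -0.79 with eIF4E1c, and the 948 genes had -1.43 with eIF4E1b and 0.64 with eIF4E1c. Genes above the median gene with eIF4E1b and below it with eIF4E1c made up 258 of the 758, while 290 were above it with both proteins and 210 below it with both. The reverse, below the median gene with eIF4E1b and above it with eIF4E1c, held for 504 of the 948, while 145 were above it with both and 299 below it with both. Over all 16307 genes, 1811 lay on opposite sides in each of these directions. As a share of all counts, the 758 genes took 17.7 to 18.9% of the eIF4E1b RIP libraries and 5.12 and 7.71% of the eIF4E1c RIP libraries, against 5.91 to 6.18% of the inputs. The 948 genes took 2.39 to 3.16% of the eIF4E1b RIP libraries and 11.3 and 10.7% of the eIF4E1c RIP libraries, against 10.3 to 11.2% of the inputs. The summed shares of both sets thus lay nearer to the input share in the eIF4E1c pull-down than in the eIF4E1b pull-down. Such shares hold the effect of the different kits, and abundant genes weigh most in them. The medians per gene lay off the median gene with eIF4E1c as well, at -0.79 and 0.64. The genes were chosen by the ratio difference, and the shares describe them without a test.

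**Figure D1:**
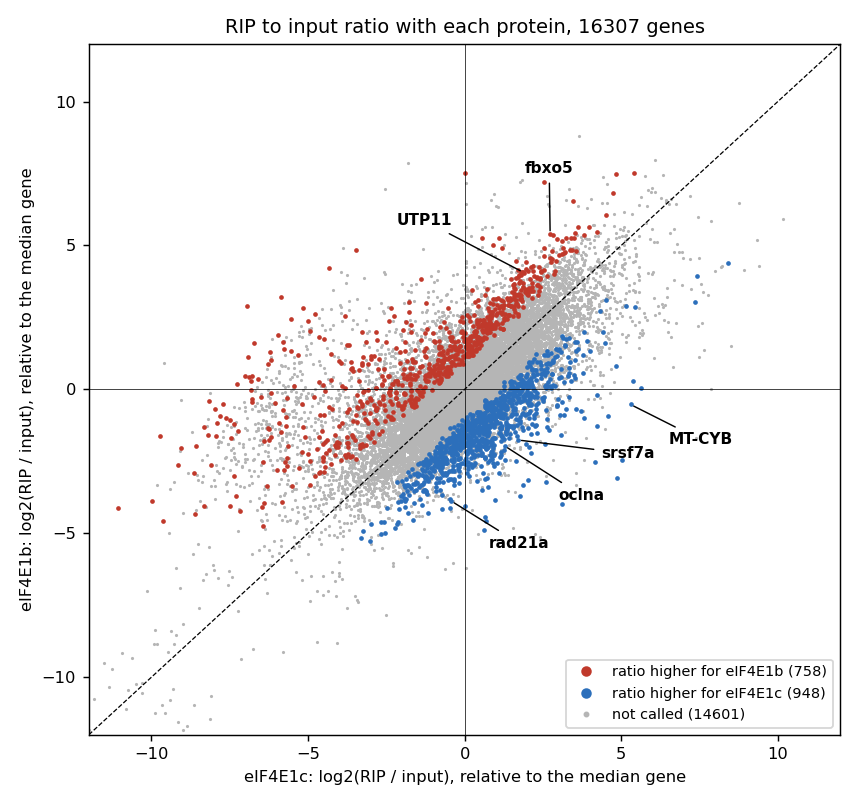
Log2(RIP/input) of each of 16307 genes with eIF4E1b (vertical axis) against eIF4E1c (horizontal axis), both relative to the median gene, with the 758 genes called higher for eIF4E1b in red, the 948 called higher for eIF4E1c in blue and 32 genes outside the plotted range. Genes on the dashed line have the same ratio with both proteins, fbxo5 and UTP11 lie above it and oclna, rad21a and MT-CYB below it.

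The RIP libraries themselves separated for nearly all called genes, a count drawn from the values that chose them. Separation of the RIP libraries of single genes, given below, is likewise a description and no further support. For 750 of the 758 genes every eIF4E1b RIP library was above both eIF4E1c RIP libraries, which held for 25% of all tested genes. For 937 of the 948 genes both eIF4E1c RIP libraries were above every eIF4E1b RIP library, against 18.1% of all tested genes. Among the 758 genes, 107 had at most 3 counts in every RIP library of one protein, and among the 948 genes 6 did. The fitted size of these genes is not a measure of fold. Of all 16307 tested genes, 1400 had such low counts, so genes of this kind were unevenly split between the directions. None of the 107 and the 6 genes is named below. The number of calls moved with single libraries, to between 826 and 983 without any 1 of the input libraries and to 4862 without eIF4E1c RIP replicate 2, when the lone eIF4E1c RIP library is assumed to vary like the other groups. All gene lists below were chosen with earlier results of these data known, so no list's share or direction is independent evidence. The values in brackets after the calls of a gene list are the range over the 11 fits that each left out a library. The count under the replicate block is added where it differs by more than 1.5 times. Of lists that reached 3 or more calls, the upper end came without eIF4E1c RIP replicate 2 in 39 of 45 for eIF4E1b and in 43 of 46 for eIF4E1c, and the lower end without an input library in 45 of 45 and in 45 of 46. Shares over all genes, set beside those of each list, are not matched for input level. The median input level was 14.5 CPM over all tested genes. It was 225 CPM for cohesin and condensin genes, 83.2 CPM for nuclear pore genes, 67 CPM for spliceosome genes and 4.72 CPM for znf genes. Genes of low counts pass the test less easily, and how far input level enters a list's share was not tested. A gene named as higher kept its call in all 20 alternatives unless a smaller number is given.

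The 71 copies of 7SL RNA, the RNA of the signal recognition particle, together had 1.15, 3.59 and 1.51 CPM in eIF4E1b RIP and 27.9 and 3.44 CPM in eIF4E1c RIP, with 13032, 19996 and 14530.0 CPM in eIF4E1b input and 26945, 19862 and 22696 CPM in eIF4E1c input. Single copies were thus at or near the limit of 3 counts in most RIP libraries, and no ratio or difference is read from them. The share called higher for eIF4E1b was 6.02% for cytosolic ribosomal protein genes and 4.31% for respiratory chain genes, and for eIF4E1c 4.82% and 1.72%. Of all genes 4.65% and 5.81% were called. mRNAs of cytosolic ribosomal proteins were far above the median gene with both proteins, at 2.08 with eIF4E1b and 2.02 with eIF4E1c. Their median ratio difference was -0.0032 over 83 genes, with 5 genes higher for eIF4E1b (2 to 12 when a library was left out) and 4 higher for eIF4E1c (2 to 6). Nuclear-encoded mRNAs of the respiratory chain were also far above the median gene, at 2.68 with eIF4E1b and 2.57 with eIF4E1c, with a median ratio difference of 0.07 and 5 and 2 of 116 genes called higher for eIF4E1b (2 to 19) and for eIF4E1c (1 to 7).

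Among single genes the baits come first, since reads of a transgene's coding part can count for the bait's gene. EIF4E1B had 68.9, 52.6 and 54 CPM in the eIF4E1b inputs, against 12.2, 18.4 and 17.1 CPM in the eIF4E1c inputs, an input difference of 1.87 ± 0.22 (SE, edgeR adjusted p = 0.00199). In RIP it had 261, 286 and 297 CPM with eIF4E1b and 85.9 and 96.6 CPM with eIF4E1c. The higher level in eIF4E1b embryos was thus present in lysate and pull-down alike, and the ratio difference was -0.25 ± 0.31 (edgeR adjusted p = 0.655). eif4e1c went the other way in the input, with 52.3, 48.9 and 46.9 CPM in eIF4E1b embryos and 82.6, 84.9 and 72.7 CPM in eIF4E1c embryos, and its ratio difference of 1.06 ± 0.37 did not pass the test (edgeR adjusted p = 0.0839).

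Replication-type histone mRNAs, which end in a stem-loop in place of a tail and are made for the rapid cleavages, had the highest median of the 50 gene lists. Of 20 tested genes, 11 were higher for eIF4E1b (8 to 12 when a library was left out) and 0 for eIF4E1c, where 4.65% and 5.81% of all genes were, and all 20 estimates were positive. At an unadjusted p under 0.05, edgeR gave 13 and 0 of them, and DESeq2 called 13 and 0. The median ratio difference was 2.1. Their median log2 ratio relative to the median gene was -0.29 with eIF4E1b and -2.29 with eIF4E1c. The list's median was therefore not above the median gene with eIF4E1b, and it lay further below it with eIF4E1c. Each of these ratios holds the effect of the kits, so neither position is a measure of binding alone. The study picked out histone mRNAs from these libraries, so their direction is not independent evidence.

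Among the histone genes, hist1h2a5, which encodes histone H2A, had 34.4, 41.1 and 43.8 CPM in eIF4E1b RIP and 9.60 and 3.35 CPM in eIF4E1c RIP, with 55 to 66.6 CPM in eIF4E1b input and 55.2 to 81.5 CPM in eIF4E1c input. Its ratio difference was 2.87 ± 0.48 (SE, called in 19 alternatives). H3C15, a histone H3 gene, had 62.3, 76.7 and 59.3 CPM with eIF4E1b and 11.1 and 16.4 CPM with eIF4E1c, a ratio difference of 2.20 ± 0.34 (called in 19). In both genes every eIF4E1b RIP library was above both eIF4E1c RIP libraries, while the input ranges of the lines overlapped. hist1h2a10 was at 2.40 ± 0.40 (called in 19), and the whole list ran from 0.41 to 2.87. With limma-voom and a separate weight for each group none of the 20 genes passed the threshold, these 3 included, and with a weight for each kind of library 5 did. These genes are near-identical copies, and how reads that match several of them were counted is not given in the sources used here, so values of single copies are uncertain.

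Variant histones, whose mRNAs can carry a tail, had a median of -1.02, with 1 of 12 genes (8.33%) higher for eIF4E1b and 3 (25%) for eIF4E1c (1 to 3). Whether each mRNA of the list carries a tail was not examined. h2az2b, an H2A.Z gene, had 39, 41.7 and 51 CPM in eIF4E1b RIP and 131 and 118 CPM in eIF4E1c RIP, at 15.4 to 18.1 CPM in eIF4E1b input and 15.3 to 16.6 CPM in eIF4E1c input (-1.56 ± 0.30). The H3.3 genes h3f3d (-1.26 ± 0.32, called in 13 of 20 alternatives) and H3-3B (-2.42 ± 0.67, called in 8, not with the block) lay on the same side. Estimates were positive for 3 of the 12 genes, and of these only h2ax, the variant that is marked at DNA breaks, was called. It had 63, 92.3 and 114 CPM in eIF4E1b RIP against 22 and 14.8 CPM in eIF4E1c RIP and a ratio difference of 2.74 ± 0.39. Of 37 histone chaperones and supply factors, 3 (8.11%) were higher for eIF4E1b and 2 (5.41%) for eIF4E1c, against 4.65% and 5.81% of all genes. That list had a median of -0.12, with 17 positive and 20 negative estimates. HIRA and ubn1, parts of the complex that deposits H3.3, were higher for eIF4E1b (1.43 ± 0.32, called in 18 alternatives, and 1.68 ± 0.36). ANP32E, a chaperone that removes H2A.Z, was higher for eIF4E1c (-1.94 ± 0.29). NASP, a chaperone of H3 and H4, had 13166, 25654 and 44706 CPM in eIF4E1b RIP and 10579.6 and 6546 CPM in eIF4E1c RIP, and its ratio difference of 1.86 ± 0.64 missed the threshold (edgeR adjusted p = 0.0798). The stem-loop binding proteins slbp (-0.19 ± 0.37) and slbp2 (-0.94 ± 0.55) also did not pass the test.

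**Figure D2:**
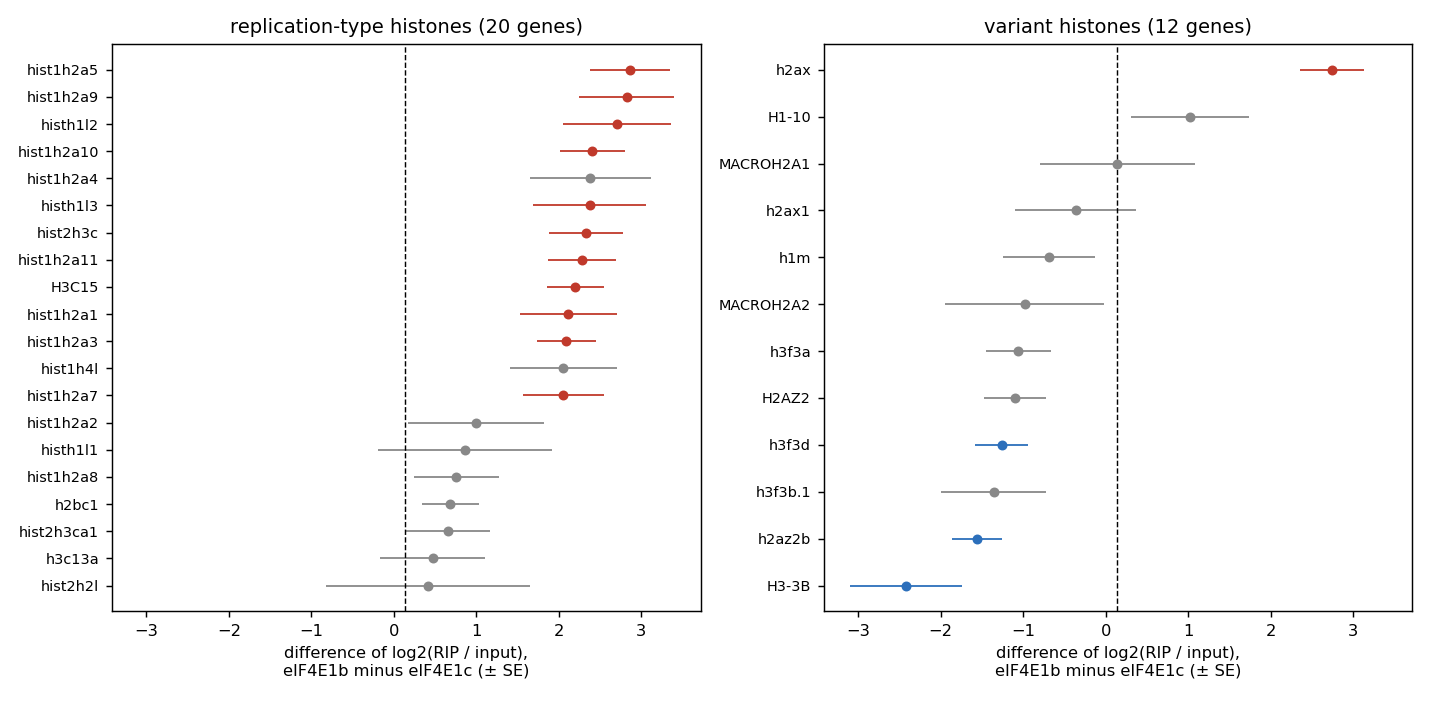
Ratio difference (log2, eIF4E1b minus eIF4E1c, with its SE) of the 20 replication-type histone genes (left) and the 12 variant histone genes (right), with genes called higher for eIF4E1b in red, genes called higher for eIF4E1c in blue and others in grey. The dashed line is the median of all genes at 0.13, and all 20 replication-type genes lie to its right, against 3 of the 12 variants.

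Several regulators of cell division stood among the transcripts higher for eIF4E1b, while lists of such genes were split between the proteins. Of 44 kinetochore and spindle checkpoint genes, 4 (9.09%) were higher for eIF4E1b and 3 (6.82%) for eIF4E1c. Over all genes these shares were 4.65% and 5.81%. The list's median was 0.09, against 0.13 for all genes. fbxo5 encodes the Emi1 inhibitor of the anaphase-promoting complex and was at 9955, 12605 and 14849 CPM in eIF4E1b RIP and 1682 and 2296 CPM in eIF4E1c RIP. Its input level was 268 to 317 CPM in eIF4E1b embryos and 293 to 318 CPM in eIF4E1c embryos, so the transcript was many times above input with both proteins and the ratio difference was 2.70 ± 0.40 (SE). ska2, a subunit of the Ska complex that holds kinetochores on microtubules, had 5234, 6564 and 6162 CPM with eIF4E1b and 783 and 1289.9 CPM with eIF4E1c, at 2.59 ± 0.40. For ccnp, a member of the cyclin family, the values were 4373, 9218 and 5804 CPM in eIF4E1b RIP and 479 and 947 CPM in eIF4E1c RIP (3.26 ± 0.50). In none of the 3 genes did the RIP libraries of the proteins overlap, and the inputs differed by less than 0.1 on the log2 scale. haspin, the kinase that marks histone H3 in mitosis, was also higher for eIF4E1b, at 1.82 ± 0.34.

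Cyclins and kinases were found on both sides. Of 85 tested genes in the list of cyclins, CDKs and mitotic kinases, 7 were higher for eIF4E1b (5 to 19) and 11 for eIF4E1c (9 to 16), with a median of 0.07. The shares were 8.24% and 12.9%, and those of the replication list below 4.23% and 11.3%, against 4.65% and 5.81% of all genes. CCNE1, the cyclin of S phase entry, had 48.6, 53.2 and 48.2 CPM in eIF4E1b RIP and 397 and 157 CPM in eIF4E1c RIP (-2.72 ± 0.41). The mitotic cyclin CCNB2 (-1.67 ± 0.29) and CCNG1 (-2.38 ± 0.32) were higher for eIF4E1c as well. Replication genes were divided in the same way, with 3 higher for eIF4E1b (1 to 8, 1 with the block) and 8 higher for eIF4E1c (5 to 11) of 71. pold3, a subunit of DNA polymerase delta, was higher for eIF4E1b (2.12 ± 0.32), and so was GMNN, the geminin inhibitor of origin licensing, at 1.76 ± 0.41 (called in 17 alternatives, not with the block). On the other side were the licensing factor CDC6 (-2.38 ± 0.26), the polymerase epsilon subunit POLE2 (-3.32 ± 0.53) and the thymidylate synthase TYMS (-2.75 ± 0.46).

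Of 119 DNA repair genes 9 were higher for eIF4E1b (3 to 24, 5 with the block) and 10 for eIF4E1c (5 to 16, 6 with the block). As shares these were 7.56% and 8.4%, against 4.65% and 5.81% of all genes. POLB, the polymerase of base excision repair, had 758, 1169.9 and 975 CPM in eIF4E1b RIP and 197 and 230.1 CPM in eIF4E1c RIP, with 173 to 195 CPM in eIF4E1b input and 144 to 167 CPM in eIF4E1c input. Its RIP libraries did not overlap between the proteins, and the ratio difference was 1.94 ± 0.32. XRCC3, a factor of homologous recombination, went the other way at -2.81 ± 0.45, as did the translocase fancm at -3.05 ± 0.52.

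**Figure D3:**
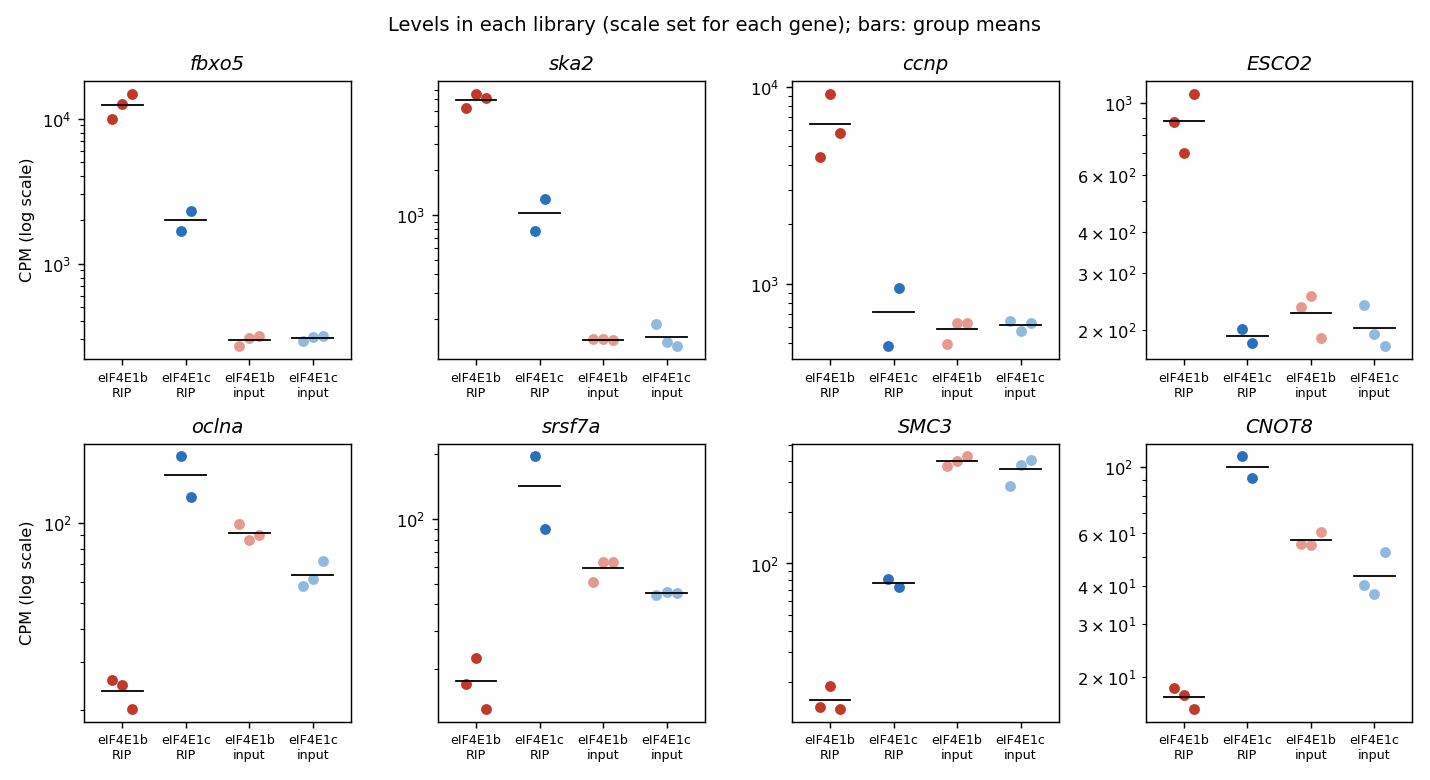
CPM (log axis, set separately for each gene) of 8 named genes in each library, from left to right for eIF4E1b RIP, eIF4E1c RIP and the inputs of eIF4E1b and of eIF4E1c, with points for libraries and bars for group means. fbxo5, ska2, ccnp and ESCO2 have all 3 eIF4E1b RIP libraries above both eIF4E1c RIP libraries. For oclna, srsf7a, SMC3 and CNOT8 all 3 lie below. For oclna and srsf7a every eIF4E1b input also lies above every eIF4E1c input.

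Ubiquitin ligase parts differed within single complexes. DCAF5, a substrate receptor of the CUL4-DDB1 ligase, had 279, 207 and 230.0 CPM in eIF4E1b RIP and 21.2 and 39 CPM in eIF4E1c RIP, at 3.07 ± 0.37. DDB1, the adaptor that such receptors bind, had 14.5, 21.2 and 8.48 CPM in eIF4E1b RIP and 165 and 80.4 CPM in eIF4E1c RIP, at -2.73 ± 0.51. Another receptor, DCAF15, was also higher for eIF4E1c (-4.00 ± 0.64), and ANAPC7, a subunit of the anaphase-promoting complex, was higher for eIF4E1b (1.83 ± 0.29). Over the whole list of 119 such genes, 11 were higher for eIF4E1b (4 to 20, 5 with the block) and 5 for eIF4E1c (3 to 16), and the median of 0.13 was that of all genes. Among the 262 E2, E3 and related genes, 10 were higher for eIF4E1b (4 to 37) and 19 for eIF4E1c (10 to 39). The first of these lists thus had 9.24% and 4.2%, and the second 3.82% and 7.25%, against 4.65% and 5.81% of all genes. The modifiers sumo3a (-3.16 ± 0.37) and sumo3b (-2.79 ± 0.36) were higher for eIF4E1c.

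mRNAs of mitochondrial ribosomal proteins had a median of 0.50, with 10 of 75 genes (13.3%) higher for eIF4E1b (5 to 25) and 3 higher for eIF4E1c (1 to 4). As shares these were 13.3% and 4%, against 4.65% and 5.81% of all genes. The median lay 0.37 above that of all genes, less than the list's replicate spread of 0.51. That gap ran from 0.098 without eIF4E1c RIP replicate 1 to 0.58 without eIF4E1b RIP replicate 1. The replicate spread is the square root of the summed variances within groups of the list's median log2 CPM per library. MRPL11, a protein of the large subunit, had 669, 967 and 805 CPM in eIF4E1b RIP and 251 and 224 CPM in eIF4E1c RIP, at 1.79 ± 0.31. MRPL48 (1.46 ± 0.31, called in 18 alternatives) and MRPL17 (1.35 ± 0.28, called in 19) were next, and MRPL43 went the other way (-2.39 ± 0.52, called in 19). The calls of this list were 3 and 3 with total count scaling, 25 and 4 without eIF4E1c RIP replicate 2, and 1 and 0 in limma-voom with weights per group, those for eIF4E1b first.

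Genes of ribosome biogenesis had a median of 0.42, with 11 of 96 (11.5%) higher for eIF4E1b (6 to 25) and 2 higher for eIF4E1c (1 to 10). As shares these were 11.5% and 2.08%, against 4.65% and 5.81% of all genes. The median lay 0.29 above that of all genes, less than the list's replicate spread of 0.32. UTP11, part of the machinery that matures the small subunit, had 1706, 2543 and 3261 CPM in eIF4E1b RIP and 427 and 390.2 CPM in eIF4E1c RIP (2.23 ± 0.42). LTV1, which helps the small subunit leave the nucleus, was at 1.68 ± 0.27. MDN1, the large ATPase that remodels the precursor of the large subunit, was higher for eIF4E1c, with 38.5, 68.7 and 47 CPM in eIF4E1b RIP and 1360.0 and 142 CPM in eIF4E1c RIP (-3.61 ± 0.78). The summed level of the list was 50034, 50814 and 54807 CPM in eIF4E1b RIP and 47485 and 20585 CPM in eIF4E1c RIP, so its eIF4E1c libraries stood far apart. Without eIF4E1c RIP replicate 2 the list's median was 0.33, below that of all genes at 0.49, and without replicate 1 it was 0.89 against 0.19.

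Zinc finger transcription factor genes had medians of 0.34 for the 240 znf genes and 0.48 for 113 zbtb and related genes. Of the znf genes 13 were higher for eIF4E1b (5 to 50, 6 with the block) and 4 for eIF4E1c (1 to 17), and of the zbtb list 8 were higher for eIF4E1b (4 to 19, 5 with the block) and 3 for eIF4E1c (1 to 15). At 5.42% and 7.08%, the shares higher for eIF4E1b were near the 4.65% of all genes, while those higher for eIF4E1c, 1.67% and 2.65%, were under 5.81%. For the znf genes the gap to the median of all genes, 0.21, was smaller than the replicate spread of 0.39. For the zbtb list the gap of 0.35 was close to its spread of 0.32. ZNF326 (1.64 ± 0.31) and znf576.2 (1.55 ± 0.28) were higher for eIF4E1b, and ZNF706 was higher for eIF4E1c (-2.91 ± 0.34).

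On the side of eIF4E1c stood many mRNAs for the splicing machinery. Of 104 spliceosome and SR protein genes, 3 (2.88%) were higher for eIF4E1b (0 to 7 when a library was left out, 0 with the block) and 22 (21.2%) for eIF4E1c (16 to 36). Over all genes the shares were 4.65% and 5.81%. The median was -0.59, with 0.11 relative to the median gene with eIF4E1b and 0.87 with eIF4E1c. The list summed to 20726, 22102 and 24226 CPM in eIF4E1b RIP and to 27332 and 14981 CPM in eIF4E1c RIP. The second eIF4E1c library was thus below every eIF4E1b library in this sum, in which abundant genes weigh most. srsf7a, an SR protein that binds exons, had 16.9, 22.5 and 13 CPM in eIF4E1b RIP and 196 and 89.5 CPM in eIF4E1c RIP, with 51.1 to 63.2 CPM in eIF4E1b input and 44.4 to 45.5 CPM in eIF4E1c input (-3.42 ± 0.43). Its eIF4E1b RIP libraries lay below every input and its eIF4E1c RIP libraries above every input. The SR protein genes SRSF1 (ENSDARG00000057691, -2.85) and SRSF3 (ENSDARG00000059360, -2.64) were on the same side, given by identifier because several genes share each symbol. Other splicing factors, PRPF38A (1.14 ± 0.30, called in 11 alternatives, not with the block), CWC25 (1.20 ± 0.33, called in 10, not with the block) and PRPF18 (0.89 ± 0.27, called in 4, not with the block), were higher for eIF4E1b. In limma-voom with weights per group 0 of the list were higher for eIF4E1b and 14 for eIF4E1c. The study took up genes of mRNA processing from these libraries itself. The direction of this list and of the lists of hnRNP and nuclear pore genes is therefore not independent evidence. The other lists are not independent either, since all were chosen with earlier results of these data known.

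Other RNA-binding proteins of the nucleus also had more calls for eIF4E1c. In the hnRNP list, 5 of 120 genes (4.17%) were higher for eIF4E1b (2 to 19) and 20 (16.7%) for eIF4E1c (13 to 35), with a median of -0.23. Over all genes the shares were 4.65% and 5.81%. The hnRNP list summed to 20259, 17803 and 18593 CPM in eIF4E1b RIP and to 18777 and 13943 CPM in eIF4E1c RIP. hnrnpa0l had 169, 196 and 162 CPM in eIF4E1b RIP and 703 and 662 CPM in eIF4E1c RIP (-2.45 ± 0.29), and hnrnpl2 was at -3.06 ± 0.39. SYNCRIP, an hnRNP of the cytoplasm, was higher for eIF4E1b at 1.37 ± 0.34 (called in 13 alternatives, not with the block), and so was the splicing regulator RBM5 at 1.46 ± 0.28. Of 84 nuclear pore, transport receptor and mRNA export genes, 0 were higher for eIF4E1b (0 to 9) and 16 (19%) for eIF4E1c (8 to 18, 10 with the block). On the side of eIF4E1b, 2 were under an unadjusted edgeR p of 0.05 and 1 passed limma-voom with weights per kind of library. NUP98, a pore protein that also binds export factors, had 20.0, 14.6 and 10.6 CPM in eIF4E1b RIP and 126 and 59.3 CPM in eIF4E1c RIP (-2.57 ± 0.42). nup153, which faces the nucleus, was at -1.88 ± 0.31.

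Cohesin and condensin mRNAs had a median of -0.53, with 3 of 37 (8.11%) higher for eIF4E1b (1 to 7, 1 with the block) and 8 (21.6%) for eIF4E1c (5 to 14, 5 with the block). Over all genes the shares were 4.65% and 5.81%. SMC3, a ring subunit of cohesin, had 14.3, 19 and 13.9 CPM in eIF4E1b RIP and 81.3 and 73.2 CPM in eIF4E1c RIP, against 372 to 426 CPM in eIF4E1b input and 286 to 406 CPM in eIF4E1c input. Both pull-downs were below input, and that of eIF4E1b further (-2.45 ± 0.31). rad21a, which closes the ring, showed the same order with 15.5, 19 and 12.3 CPM with eIF4E1b and 203 and 72.3 CPM with eIF4E1c (-3.40 ± 0.45). ESCO2, the enzyme that acetylates SMC3, was higher for eIF4E1b, at 878, 699.7 and 1071 CPM in eIF4E1b RIP and 200.2 and 182 CPM in eIF4E1c RIP (2.06 ± 0.35). The related esco1 was at 1.23 ± 0.29 (called in 14 alternatives, not with the block). The cohesin and condensin list had a median input level of 225 CPM, against 14.5 CPM for all tested genes, so its shares are not matched for level.

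Chromatin regulators had a median of -0.02 over 257 genes, against 0.13 for all genes. It lay below that of all genes in all 20 alternatives, which reuse the same libraries. The gap of -0.15 was smaller than the list's replicate spread of 0.27. It ran from -0.68 without eIF4E1c RIP replicate 2 to -0.03 without replicate 1. The list's summed level was 37659, 33011 and 37809 CPM in eIF4E1b RIP and 55021 and 28180 CPM in eIF4E1c RIP. Higher for eIF4E1b were 10 (3.89%), with 2 to 35 when a library was left out, 6 with the block, and higher for eIF4E1c were 24 (9.34%), with 10 to 58, 12 with the block. The study reported terms of chromatin regulation for its eIF4E1b RIP genes, from RIP libraries alone and with other gene sets than this list. PRMT1, which methylates arginines of histones, was at -3.05 ± 0.39 and kmt5aa, which methylates histone H4, at -2.06 ± 0.31. ing5b, a reader of methylated histone H3, had 1439, 2125 and 2778 CPM in eIF4E1b RIP and 543 and 457 CPM in eIF4E1c RIP (2.05 ± 0.39). The RNA polymerase II list had 5.07% of genes higher for eIF4E1b and 10.9% for eIF4E1c, against 4.65% and 5.81% of all genes. For RNA polymerase II and its cofactors, 7 of 138 (3 to 24, 3 with the block) were higher for eIF4E1b and 15 (10 to 28) for eIF4E1c, among these the polymerase subunit POLR2D (-3.67 ± 0.59) and the Mediator subunits MED10 (-2.61 ± 0.49) and MED25 (-2.36 ± 0.40).

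Junction and membrane genes were a further group. oclna, an occludin of tight junctions, had 25.8, 24.8 and 20.1 CPM in eIF4E1b RIP and 177 and 125 CPM in eIF4E1c RIP, with 86.3 to 98.6 CPM in eIF4E1b input and 58.1 to 72.1 CPM in eIF4E1c input (-3.20 ± 0.31, edgeR adjusted p = 0.00082). The pull-downs lay on opposite sides of the inputs. The claudin cldn7b was at -2.80 ± 0.38. Of 90 junction genes 4 (4.44%) were higher for eIF4E1b (1 to 16) and 13 (14.4%) for eIF4E1c (10 to 24), with a median of -0.54. Without eIF4E1c RIP replicate 2 that median was 0.02, against 0.49 for all genes. Shares over all genes were 4.65% higher for eIF4E1b and 5.81% for eIF4E1c. Genes of the endoplasmic reticulum and of coat vesicles gave 5 of 170 (2.94%) higher for eIF4E1b (1 to 21) and 22 (12.9%) for eIF4E1c (11 to 31), with a median of -0.29. srprb, the anchor of the receptor for the signal recognition particle, had 14.2, 15.4 and 17.3 CPM in eIF4E1b RIP and 88.5 and 77.7 CPM in eIF4E1c RIP (-2.82 ± 0.34), and the vesicle fusion protein VAMP3 was at -2.88 ± 0.43.

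**Figure D4:**
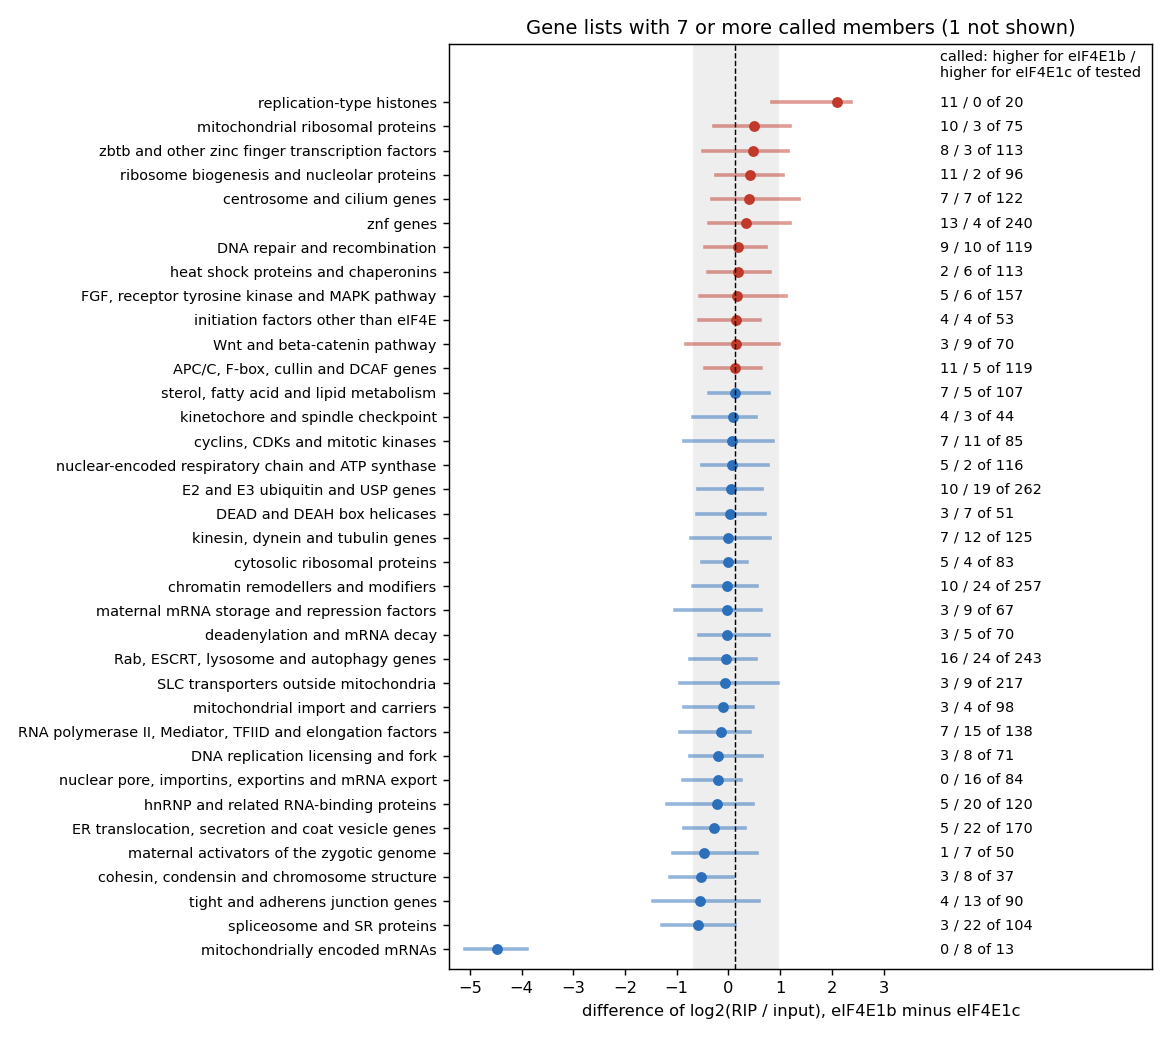
Median (point) and quartiles (bar) of the ratio difference, eIF4E1b minus eIF4E1c on the log2 scale, for the gene lists with at least 7 called members (1 not shown), in red where the median is above and in blue where it is below that of all genes (dashed line at 0.13, grey band from its lower to its upper quartile, -0.68 and 0.96). Replication-type histones stand at 2.1 and mitochondrially encoded mRNAs at -4.48, outside the grey band, and all other list medians shown lie inside it.

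Maternal regulators of translation and decay were examined because eIF4E proteins work beside them. In the list of the eIF4E family and its binding proteins, EIF4EBP3, an inhibitor of eIF4E, had 21.8, 26.4 and 18.2 CPM in eIF4E1b RIP and 173 and 93.3 CPM in eIF4E1c RIP (-2.74 ± 0.38). EIF4E2, the weak cap binder 4EHP, was higher for eIF4E1b at 1.6 ± 0.39 (called in 15 alternatives). eif4enif1, the partner that holds eIF4E in P-bodies, was not called (-0.28 ± 0.43). Over the 15 genes of that list the median was -0.80, with 1 higher for eIF4E1b (0 to 3) and 2 for eIF4E1c (1 to 4, 1 with the block). These were 6.67% and 13.3% of that list, and the deadenylation and decay list had 4.29% and 7.14%, against 4.65% and 5.81% of all genes. CNOT8, a catalytic deadenylase of the CCR4-NOT complex, had 18.4, 17.4 and 15.6 CPM in eIF4E1b RIP and 108 and 91.7 CPM in eIF4E1c RIP (-2.93 ± 0.31). Its paralog CNOT7 was on the same side (-2.46 ± 0.58, called in 14 alternatives, not with the block), while the regulatory subunit CNOT3 was on the other (1.49 ± 0.42, called in 8, not with the block). In the list of deadenylation and decay 3 of 70 genes were higher for eIF4E1b (0 to 11) and 5 for eIF4E1c (2 to 12, 2 with the block). XRN1, the exonuclease that degrades decapped mRNA, was higher for eIF4E1c (-1.65 ± 0.32, called in 19).

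Factors of translation proper gave a few calls on each side. Of 53 initiation factor genes 4 were higher for eIF4E1b (3 to 10) and 4 for eIF4E1c (3 to 7), with a median of 0.15. Both shares were 7.55%, against 4.65% and 5.81% of all genes. eif4ba, which helps the eIF4A helicase, had 447, 479 and 367 CPM in eIF4E1b RIP and 184 and 173 CPM in eIF4E1c RIP (1.44 ± 0.29). Of 26 elongation and release factor genes 3 were higher for eIF4E1b (1 to 5, 0 with the block), among them the release factor ETF1 (1.57 ± 0.31, called in 19 alternatives, not with the block), and 0 for eIF4E1c (0 to 1), where 1 had an unadjusted edgeR p under 0.05 and DESeq2 called 0. DEAD and DEAH box helicases, which unwind RNA, had 3 of 51 higher for eIF4E1b (2 to 7) and 7 for eIF4E1c (3 to 14, 3 with the block). The elongation and release list thus had 11.5% and 0%, and the helicases 5.88% and 13.7%, against 4.65% and 5.81% of all genes. Both genes with the symbol DDX39A, a helicase of mRNA export, were higher for eIF4E1c, at -3.20 for ENSDARG00000015111 and -2.68 for ENSDARG00000006225. ENSDARG00000015111 had 43.4, 56 and 49.4 CPM in eIF4E1b RIP and 618 and 146 CPM in eIF4E1c RIP.

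Of 67 maternal storage and repression factors, 3 (4.48%) were higher for eIF4E1b (1 to 8) and 9 (13.4%) for eIF4E1c (4 to 17, 5 with the block), with a median of -0.03. Over all genes the shares were 4.65% and 5.81%. The P-body proteins LSM14A (-1.39 ± 0.29) and lsm14aa (-1.41 ± 0.28), each called in 19 alternatives, and the repressor CELF1 (-2.15 ± 0.46) were higher for eIF4E1c, and the RNA-binding protein PUM3 was higher for eIF4E1b (1.73 ± 0.38, called in 19). YBX1, which packs stored mRNA, was higher for eIF4E1c at -1.15 ± 0.31 (called in 10, not with the block). DDX6, the P-body helicase, had 122, 109.8 and 76.5 CPM in eIF4E1b RIP and 225 and 170.3 CPM in eIF4E1c RIP, and its ratio difference of -1.04 ± 0.31 just missed the threshold (edgeR adjusted p = 0.0501). ZAR1 (-0.43 ± 0.35), ZAR1L (0.10 ± 0.45) and PABPC1L (1.08 ± 0.34) did not pass the test.

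Among germ plasm and germ cell genes, 0 of 40 were higher for eIF4E1b (0 to 3) and 6 (15%) for eIF4E1c (2 to 11, 3 with the block). On the side of eIF4E1b 4 had an unadjusted edgeR p under 0.05 and DESeq2 called 0. The median was -0.08. Shares over all genes were 4.65% higher for eIF4E1b and 5.81% for eIF4E1c. DAZL, a germline RNA-binding protein, had 34.8, 36.8 and 28.4 CPM in eIF4E1b RIP and 294 and 76.6 CPM in eIF4E1c RIP (-2.42 ± 0.57, called in 13 alternatives, not with the block). gtsf1, a factor of the piRNA pathway, was at -1.75 ± 0.31. The germ plasm organizer buc (0.10 ± 0.33), the helicase DDX4 (-0.44 ± 0.42) and NANOS3 (1.06 ± 0.66) did not pass the test. Of 50 maternal activators of the zygotic genome, 1 (2%) were higher for eIF4E1b (0 to 2, 0 with the block) and 7 (14%) for eIF4E1c (4 to 17), with a median of -0.48. EOMES (ENSDARG00000006640), a T-box activator, had 20.2, 23.5 and 19.3 CPM in eIF4E1b RIP and 162 and 75.2 CPM in eIF4E1c RIP (-2.73 ± 0.39), and hmgn1a, a nucleosome-binding protein, was higher for eIF4E1b at 1.53 ± 0.35 (called in 18, not with the block). The pluripotency factors nanog (-1.10 ± 0.34, edgeR adjusted p = 0.0554), pou5f3 (-0.84 ± 0.37) and sox19b (0.37 ± 0.34) were not called.

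Signalling genes were called on both sides. The shares were 4.29% for eIF4E1b and 12.9% for eIF4E1c in the Wnt list, against 4.65% and 5.81% of all genes. In the list of TGF-beta, BMP and Nodal genes each share was 1.64%. In the Wnt list, 3 of 70 genes were higher for eIF4E1b (0 to 15, 0 with the block) and 9 for eIF4E1c (4 to 14), among these WLS, which carries Wnt ligands to the surface (-2.06 ± 0.34), and TCF7L1, a repressor of Wnt targets (-2.14 ± 0.35). SMAD5, the effector of BMP signals, had 13.8, 16 and 13.3 CPM in eIF4E1b RIP and 81.6 and 77.8 CPM in eIF4E1c RIP (-2.54 ± 0.29), although in its list only 1 of 61 genes was higher for eIF4E1b (1 to 6) and 1 for eIF4E1c (1 to 6). ppp1caa, a catalytic subunit of protein phosphatase 1, was among the genes with the smallest p on the side of eIF4E1c (-3.07 ± 0.34). On the side of eIF4E1b that group held NAT9 (2.82 ± 0.38), an N-acetyltransferase gene, aftphb (2.32 ± 0.32, called in 19 alternatives), a gene of clathrin-coated transport, and several loci without a gene symbol, led by ENSDARG00000109926, with 16.4, 24.6 and 30.5 CPM in eIF4E1b RIP and 1.66 and 1.26 CPM in eIF4E1c RIP (4.96 ± 0.50, called in 19).

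Housekeeping and transport genes were called on both sides. Of 47 glycolysis and TCA cycle genes 0 were higher for eIF4E1b (0 to 6, 1 with the block) and 5 for eIF4E1c (3 to 9). On the side of eIF4E1b 5 had an unadjusted edgeR p under 0.05 and DESeq2 called 4. GAPDH, the glycolytic dehydrogenase, had 201, 332 and 278 CPM in eIF4E1b RIP and 934 and 1080.4 CPM in eIF4E1c RIP (-1.61 ± 0.34). SLC25A5, a carrier of ADP and ATP across the inner mitochondrial membrane, was also higher for eIF4E1c (-2.16 ± 0.34), although mitochondrial import and carrier genes as a list had 3 higher for eIF4E1b (1 to 19, 1 with the block) and 4 for eIF4E1c (3 to 15) of 98. Rab, lysosome and autophagy genes had 16 (6.58%) higher for eIF4E1b (2 to 48, 3 with the block) and 24 (9.88%) for eIF4E1c (16 to 40) of 243. Kinesin, dynein and tubulin genes had 7 (3 to 14, 2 with the block) and 12 (6 to 25, 6 with the block) of 125 in the same order, with the chromosome-bound kinesin KIF22 at -2.51 ± 0.32. Centrosome and cilium genes had 7 (3 to 18, 4 with the block) and 7 (6 to 17) of 122, and proteasome subunits 4 (3 to 10) and 2 (1 to 9) of 54. Heat shock proteins and chaperonins had 2 (1 to 19) and 6 (5 to 12) of 113, and transporters of the SLC family outside mitochondria 3 (0 to 31, 0 with the block) and 9 (5 to 29) of 217. On the side of eIF4E1b the shares of these lists ran from 0% to 7.41%, where 4.65% of all genes were called, and on the side of eIF4E1c the lists of glycolysis (10.6%), Rab and kinesin genes (9.6%) were above the 5.81% of all genes.

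The 13 mRNAs of the mitochondrial genome, which have no cap, had the lowest median of all lists at -4.48. Higher for eIF4E1b were 0 of them, with 0 at an unadjusted edgeR p under 0.05 and 0 by DESeq2, and higher for eIF4E1c were 8 (1 to 11 when a library was left out). MT-CYB, which encodes cytochrome b, had 9.90, 113 and 17.1 CPM in eIF4E1b RIP and 2572 and 326 CPM in eIF4E1c RIP, with 127, 46.8 and 27.7 CPM in eIF4E1b input and 55.5, 34.1 and 24.3 CPM in eIF4E1c input (-5.78 ± 1.31, called in 18 of 19 alternatives). The calls for eIF4E1c made up 61.5% of the list, against 5.81% of all genes. Most calls of this list rested on the first eIF4E1c RIP library. The 13 mRNAs together took 172, 1138 and 192 CPM in eIF4E1b RIP and 15333 and 2257 CPM in eIF4E1c RIP, so that the highest eIF4E1b library came within a factor of 2 of the lower eIF4E1c library. Without eIF4E1c RIP replicate 1, 1 gene stayed called and the median was -3.05.

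**Figure D5:**
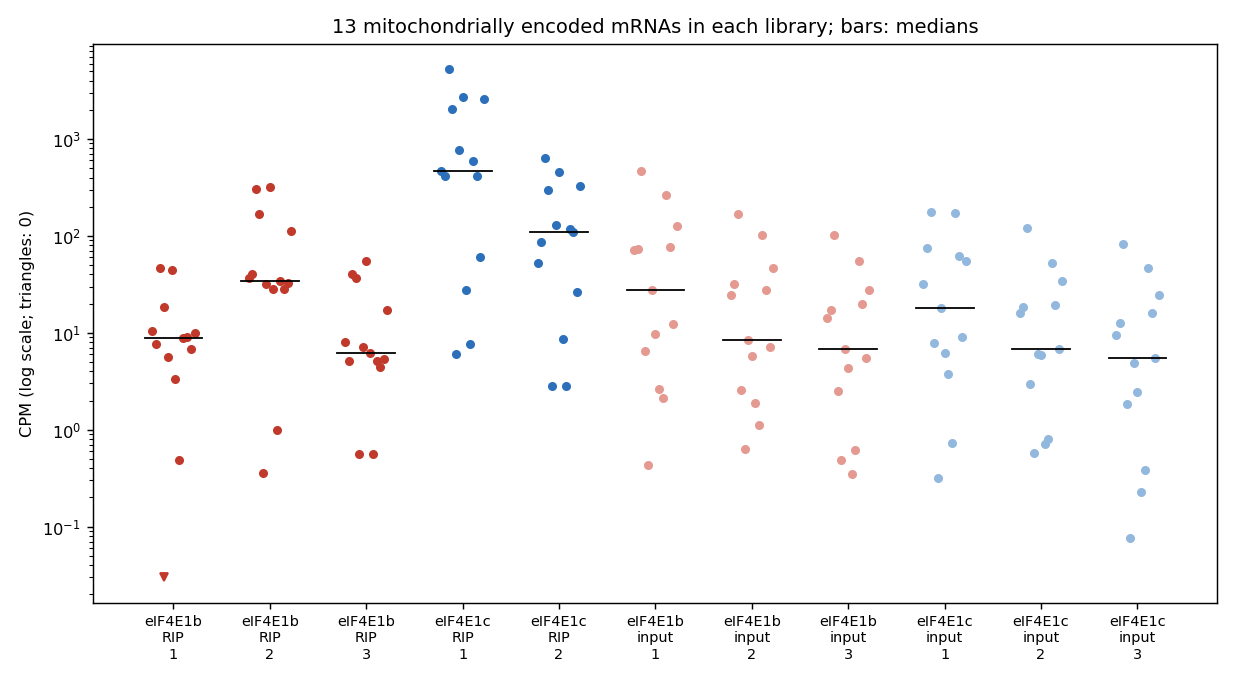
CPM (log axis) of the 13 mitochondrially encoded mRNAs in each of the 11 libraries, from left to right for eIF4E1b RIP, eIF4E1c RIP and the inputs of eIF4E1b and of eIF4E1c, with a bar at the median and a triangle for 0. The first eIF4E1c RIP library is the highest, with a sum of 15333 CPM against 2257 CPM in the second, and the second eIF4E1b RIP library is above its own replicates.

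The called genes are further described by their input level, which enters the ratio itself, and by their names. Their median input level was 31.5 CPM for the genes higher for eIF4E1b (quartiles 8.25 and 87.6) and 51.8 CPM for those higher for eIF4E1c (20.3 and 110.2), against 14.5 CPM (2.39 and 58.9) for all tested genes. Loci with a clone name or no symbol made up 149 of the 758 genes (19.7%) and 68 of the 948 (7.17%), against 17.1% of all tested genes. Genes of low counts pass such a test less easily, and the input level was not held constant here. Counts from whole embryos do not show whether a lower level comes from fewer cells with a transcript or from less of it per cell.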

How the data were processed

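RNA was sequenced from 11 libraries of 8-cell zebrafish embryos. RIP libraries were made with the SMARTer Ultra Low kit and input libraries with SMARTer Stranded in a Ribo-Zero protocol. The deposited files hold raw read counts for 32520 Ensembl genes of GRCz11, with no normalization by the authors. Their processing notes name Trim Galore 0.5.0, Bowtie2 2.3.4.1, featureCounts of Subread 1.6.2, DESeq2 1.18.1 and R 3.4.1. The gene annotation, the strand setting and the treatment of reads with several matches are not given in the sources used here. Columns of the authors' own comparisons were not used. Symbols matched 29201 identifiers.

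Counts were fitted with edgeR 4.0.16 in R 4.3.3 (filterByExpr, TMM scaling, one mean per group), because the values are counts with few replicates, and the quasi-likelihood F test was run on the contrast of protein with kind of library, on the RIP contrast and on the input contrast. The SE is the size of the log2 difference divided by the square root of F. The Benjamini-Hochberg threshold was 0.05. Scripts were tested on simulated data. In 1 library a count of 3 is worth 0.207 to 0.554 CPM, and such limits cover counting error only. Replicates differed by more than sampling noise, with chi-square values per degree of freedom of 12.07 to 139.4.

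The 50 gene lists were made from symbol patterns. Members and lists were chosen with earlier results of these data known. Named were the 10 called genes with the smallest p in each direction, up to 3 called members per direction of each list with at least 3 called members, both baits, 16 further fixed genes and the mitochondrially encoded mRNAs as a group. Of these, part is given in full, and some results are not reported here. Alternatives were DESeq2 1.42.0, limma 3.58.1 (voom with weights per kind of library and, added after the data were seen, per group), other scalings, filters and thresholds, each library left out, and replicate blocks.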

Additional observations from a re-analysis of the deposited data

Results flagged for a closer look

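The test of the difference between the proteins is itself an interaction, since it asks whether RIP over input was the same for eIF4E1b and eIF4E1c. It passed for 758 genes with the higher ratio for eIF4E1b and for 948 genes with the higher ratio for eIF4E1c (edgeR, adjusted p under 0.05).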

How the results depend on the processing

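The ratio difference was called for 1706 genes (758 higher for eIF4E1b and 948 for eIF4E1c). DESeq2 gave 2781 (1367 higher for eIF4E1b), limma-voom with weights per kind of library 858 (313 and 545), limma-voom with weights per group 407 (97 and 310), and edgeR at an adjusted p of 0.005 gave 254 (68 and 186). With total count scaling 352 were higher for eIF4E1b and 1093 for eIF4E1c. Leaving out 1 library gave 826 to 4862 in all, 300 to 2775 for eIF4E1b and 526 to 2087 for eIF4E1c, with the lowest values without eIF4E1b input replicate 2 and the highest without eIF4E1c RIP replicate 2. Where a fit left 1 eIF4E1c RIP library, that library was assumed to vary like the other groups.

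The RIP difference gave 4551 calls (2335 higher with eIF4E1b and 2216 with eIF4E1c). Weights per kind of library gave 1314 (586 and 728), weights per group 645 (212 and 433), edgeR at 0.005 gave 1469 (613 and 856), and total count scaling gave 1492 higher with eIF4E1b. Leaving out 1 library gave 3438 to 6773, with 1771 to 3816 for eIF4E1b and 1667 to 2957 for eIF4E1c. The input difference gave 47 (23 and 24). DESeq2 gave 212 (97 and 115), weights per kind of library 607 (242 and 365), weights per group 592 (213 and 379), no filter on low counts 193 (92 and 101), edgeR at 0.005 gave 7 (6 and 1) and DESeq2 at 0.005 gave 109 (50 and 59). Leaving out 1 library gave 9 to 123, with 7 to 57 and 1 to 67. The cause of these moves was not tested.

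The study kept part of each lysate as input, so a RIP and an input library of a line may share a lysate, but the labels do not state that the replicate number marks it, and the deposited file of eIF4E1c RIP replicate 2 carries the number 3, where the label was followed. The deviations of RIP and input libraries with the same number correlated at 0.416, 0.225 and 0.453 for eIF4E1b, where each RIP library was closest to its own number, and at 0.187 and 0.0665 for eIF4E1c, where RIP replicate 2 was closer to input 3 at 0.166. With the replicate block within each line, 1162 genes were called (492 and 670), the input difference gave 137 (66 and 71), and 49 of 256 called named genes lost their call. With eIF4E1c RIP replicate 2 paired with input 3 instead, which was chosen after seeing the data, the block gave 1164 (478 and 686) and 167 for the inputs (77 and 90), and 48 named genes lost their call. The block shared by all groups ended 18.

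Of the 256 called named genes, 117 kept their call in all alternatives and 0 changed sign. An alternative that gave a gene no adjusted p was left out for that gene and not counted as a lost call. DESeq2 ended 0 of their calls, weights per kind of library 58, total count scaling 40, and at least 1 fit without a library 72. List medians moved by more than the replicate spread in 32 of 1000 alternative values. That spread is one of single libraries, not of group means, and the alternatives reuse the same libraries, so the count is no measure of stability. For the mitochondrially encoded mRNAs the spread was 2.40. Their change from -4.48 to -3.05 without eIF4E1c RIP replicate 1 was therefore not counted as a move. The median of all genes was 0.13, against -0.11 with total count scaling and 0.49 without eIF4E1c RIP replicate 2.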
